A study of Mus musculus with 8 samples.

Results

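The transcripts of the ERK cascade were followed in striatum of mice that lack one copy of Mapk3, the gene of the kinase ERK1. A set of 8 genes was examined, chosen by symbol from the 55032 genes of the deposited table. They were Mapk3, which lies in the deleted segment, and 7 genes that lie elsewhere, namely the upstream kinases Braf, Map2k1 and Map2k2 and the feedback genes Dusp6, Spry2, Spred1 and Etv5. All 8 members were found and all 8 had enough counts to be tested, with between 386 and 5937 counts per mouse. Striatum came from 8 female mice of strain C57BL/6 at postnatal day 60, namely 4 WT and 4 16p11.2+/- animals, with 1 RNA library per animal. The 16p11.2+/- mice carry the deletion on one chromosome 7 in every cell, so that the design cannot assign a difference to a cell type or to Mapk3 rather than to its deleted neighbours. The question put to the data was how far the transcript of Mapk3 is reduced and whether the transcripts around it in the pathway differ between the genotypes.

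In the ERK cascade, active RAS at the membrane recruits RAF kinases such as BRAF, RAF phosphorylates the MEK kinases encoded by Map2k1 and Map2k2, and MEK phosphorylates ERK kinases such as ERK1. ERK then acts on cytoplasmic targets and on transcription factors, and among the genes it induces are its own inhibitors: DUSP6 dephosphorylates ERK, and SPRY2 and SPRED1 dampen signalling between receptors and RAF. ETV5 is an ETS family transcription factor whose gene is itself induced by the pathway. In medium spiny neurons, the main neurons of the striatum, ERK is activated by dopamine and glutamate together and is studied for its part in plasticity and reward learning.

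The libraries held 15125051 to 16523429 gene counts each, with overlapping ranges in both genotypes. Levels of cell type markers differed between the libraries. The mean log2 CPM (counts scaled to the TMM-adjusted library size) of 8 medium spiny neuron markers was between 8.09 and 8.85 in WT mice. It was 8.78 in DF-1018 and 8.64 in DF-1059, but 6.74 in DF-1037 and 6.30 in DF-1062, where DF stands for 16p11.2+/- in the mouse names. Ppp1r1b, which encodes the striatal phosphoprotein DARPP-32, had an FPKM (the count scaled to gene length and library size) of 83.5 in DF-1037 and 47.5 in DF-1062 against 220 to 359 in the other 6 mice. None of the 8 markers was at 0 in any mouse. The score of 7 thalamus genes was between 3.18 and 3.41 in WT-1015, WT-1041, WT-1061 and DF-1059 and between 5.67 and 6.58 in the other 4 mice. That of 6 cortical glutamatergic neuron genes ranged from 2.37 to 5.50 in WT and from 2.39 to 5.37 in 16p11.2+/- mice. Scores of 7 oligodendrocyte genes were 7.79 to 8.21 in WT and 7.22 to 7.84 in 16p11.2+/- mice, those of 5 astrocyte genes 7.06 to 7.33 and 7.16 to 7.40, and those of 5 choroid plexus genes 0.60 to 7.76 and 1.34 to 3.35. In the edgeR test 0 of the 36 tested markers passed an adjusted p of 0.05, and of these scores only those of medium spiny neurons, thalamus and cortex were entered as terms in a model. Since DF-1037 and DF-1062 stand apart in the level of medium spiny neuron transcripts, each member was also compared without them.

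Mapk3 fell to 52.1% of its WT level in 16p11.2+/- striatum. The gene (ENSMUSG00000063065) spans bases 126759601 to 126765819 of chromosome 7, forward strand (GRCm38, GENCODE M21), and none of its exon sequence is shared with another gene. Its FPKM was 35.7 in WT-1015, 42.3 in WT-1041, 46.4 in WT-1061 and 37.6 in WT-1063. In 16p11.2+/- mice it was 21.5 in DF-1018, 22.3 in DF-1037, 21.0 in DF-1059 and 20.7 in DF-1062. The highest 16p11.2+/- value was thus far below the lowest WT value, and the 16p11.2+/- values lay close together although their medium spiny neuron scores did not. The group values were 40.5 ± 4.80 (SD, n = 4) for WT and 21.4 ± 0.700 (SD, n = 4) for 16p11.2+/- mice (two-sided exact permutation test, p = 0.0286, the smallest that 4 mice against 4 can give). The log2 fold change from edgeR's quasi-likelihood test was -0.94 (standard error 0.10, 95% interval -1.16 to -0.72), with an adjusted p of 0.00986 over all 18294 genes tested. This is 52.1% of the WT level, with an interval from 44.7% to 60.6% that includes the 50% that 1 of 2 copies would give. With 1 mouse left out the log2 fold change ranged from -0.99 to -0.86, and the adjusted edgeR p was 0.0573 without WT-1041, 0.0606 without DF-1018 and 0.0631 without DF-1059. Without both DF-1037 and DF-1062 the log2 fold change was -0.92 (95% interval -1.21 to -0.64), with an unadjusted edgeR p of 0.000121 and an adjusted p of 0.154. Mapk3 was the only one of the 8 members past the threshold, against 0.109% of all genes tested in either direction and 0.0929% in the lower one. It was also the only one whose groups did not overlap, against 2.83% of all genes tested in either direction, 1.62% with lower and 1.21% with higher 16p11.2+/- values.

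**Figure D1:**
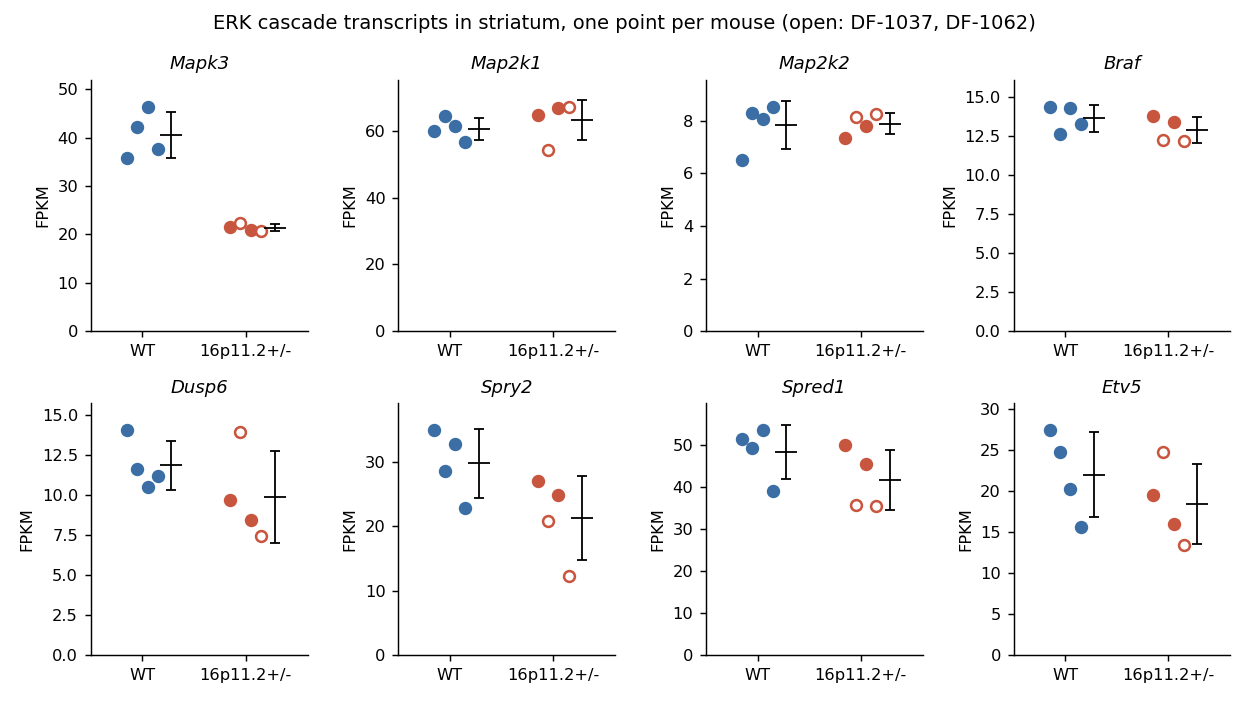
FPKM of the 8 ERK cascade members, each in its own panel with an axis from 0, for 4 WT mice (blue) and 4 16p11.2+/- mice (red), with the mean and SD of each group beside the points and open circles for DF-1037 and DF-1062. Only the Mapk3 groups are apart, at 20.7 to 22.3 against 35.7 to 46.4.

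Within the deleted segment the fall of Mapk3 was a middling one. The engineered deletion runs from Slx1b to Sept1, from 126689468 to 127233130 on chromosome 7, a stretch of 544 kb in which 56 annotated genes were in the table and 34 were tested. All 34 had a negative log2 fold change, 17 of them past the threshold (6 to 14 with 1 mouse left out), and the median of the 33 genes other than Mapk3 was -0.97. Mapk3 had the 21st largest fall and the 8th smallest p of the 34. Its nearest tested neighbours were Coro1a, the gene of an actin-binding protein, with a log2 fold change of -0.90 (standard error 0.25, adjusted p = 0.859 in edgeR), and Gdpd3, a phosphodiesterase gene with a mean FPKM of 1.94 in WT mice, with -0.90 (standard error 0.63, adjusted p = 0.859 in edgeR). Gdpd3 starts 6.73 kb after the start of Mapk3. In the 500 kb on each side of the segment 0 of 16 genes before it and 0 of 24 genes after it were past the edgeR threshold, and 0 of them had an unadjusted edgeR p under 0.05. Their median log2 fold changes were -0.02 and 0.02.

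**Figure D2:**
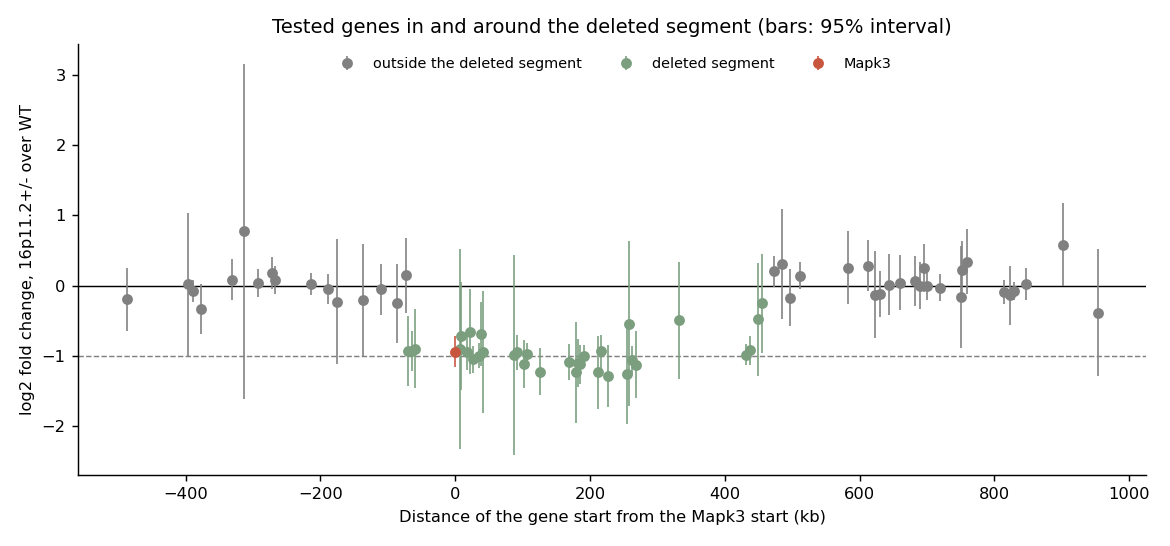
Log2 fold change with its 95% interval (16p11.2+/- over WT) of the tested genes in the deleted segment (green, Mapk3 in red) and in the 500 kb on each side (grey), by distance of the gene start from the start of Mapk3 in kb. The dashed line marks 50% of the WT level. The Mapk3 point at -0.94 lies among the other genes of the segment, and the genes outside it lie around 0.

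The 5 tested genes most like Mapk3 in their profile over the 8 mice were all genes of the deleted segment. Likeness was measured as the root mean square distance between log2 CPM profiles, each centred on its own mean. Both genotypes were centred together, so the distance includes the genotype difference. Genes lowered by the same deletion thus come out near Mapk3 by construction, and genes without such a fall come out farther away. Taok2, a kinase gene, was nearest at 0.089, followed by Tbc1d10b at 0.11, Cd2bp2 at 0.12, Ino80e at 0.13 and Sez6l2 at 0.14. Of the 20 nearest genes, 15 lay in the segment. No other member was near: Spry2 was closest at 0.40, in place 1005 of 18293 genes ranked, and Map2k1 farthest at 0.51.

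The kinases upstream of ERK had no difference past the threshold, and their fold changes had the narrowest intervals of all members. Map2k1 (chromosome 9, 64185770 to 64253631, reverse strand) encodes MEK1 and was the most abundant member. Its FPKM was 59.8, 64.3, 61.5 and 56.6 in the WT mice in the order WT-1015, WT-1041, WT-1061 and WT-1063. In DF-1018, DF-1037, DF-1059 and DF-1062 it was 64.6, 54.3, 66.7 and 67.2. Of the 16p11.2+/- mice, 3 thus lay above every WT mouse and DF-1037 below them all. Its fold change was 0.04 on the log2 scale (standard error 0.09, 95% interval -0.16 to 0.24, adjusted p = 0.930 in edgeR), so that the fitted level was between 89.5% and 118% of WT.

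Map2k2 (chromosome 10, 81105915 to 81133975, forward strand), the gene of MEK2, was the least abundant member. Its FPKM was 6.50, 8.28, 8.05 and 8.53 in WT and 7.35, 8.15, 7.80 and 8.25 in 16p11.2+/- mice, in the same order of mice. The 16p11.2+/- values lay within the WT range. Its log2 fold change was -0.01 (standard error 0.09, 95% interval -0.22 to 0.19, adjusted p = 0.978 in edgeR), and its sign depended on the scaling, being positive at 0.01 with library totals. Map2k2 made up 11.5% ± 1.35 (SD, n = 4) of the MEK FPKM in WT and 11.17% ± 1.29 (SD, n = 4) for 16p11.2+/- mice (exact permutation p = 0.714, and the same when adjusted over 4 comparisons of kinase shares and sums).

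Braf (chromosome 6, 39603237 to 39725463, reverse strand) shares 1.05% of its exon sequence with Ndufb2 on the opposite strand. In WT mice its FPKM was 14.4, 12.6, 14.3 and 13.3, and in 16p11.2+/- mice 13.8, 12.2, 13.4 and 12.2. DF-1037 and DF-1062 were the lowest of all 8 mice, while DF-1018 and DF-1059 lay within the WT range. On the log2 scale the difference was -0.10 (standard error 0.09, 95% interval -0.31 to 0.11, adjusted p = 0.861 in edgeR), and without DF-1037 and DF-1062 it was 0.0033. It was -0.04 without DF-1062 and -0.06 without WT-1015. Araf, the gene of another RAF kinase, stood at an FPKM of 30.4 ± 1.92 (SD, n = 4) for WT and 32.2 ± 6.45 (SD, n = 4) for 16p11.2+/- mice, with its highest value, 41.5, in DF-1062. The difference of Araf did not pass (adjusted p = 0.928 in edgeR).

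The 4 feedback genes all had negative log2 fold changes, from -0.50 to -0.23, none of them past the threshold, and in each the groups overlapped. Of all 18294 genes tested, 9484 had a negative value. The promoters of the 3 inhibitors are shown because ETS factors, the best known transcription factors downstream of ERK, bind a GGAA core. Promoter sequences were taken from RefSeq (GRCm38.p6) as the 250 bases before and 50 bases after the start of the RefSeq gene, which need not be the GENCODE start. The Spred1 window ends before the GENCODE start of Spred1 given with its values. Of the members, 7 of 8 had an entry, all but Mapk3. The letters CGGAAG, searched on both strands and given in capitals, occur in 16.9% of 32851 promoters of this length. They were found in the promoters of 2 of these 7 members. The median GC content was 52.7% over all promoters, against 57.3% for Dusp6, 62.7% for Spry2 and 72.3% for Spred1. The share with the letters was not computed for promoters of like GC content.
Dusp6 (chr10:99262981-99263280, forward strand): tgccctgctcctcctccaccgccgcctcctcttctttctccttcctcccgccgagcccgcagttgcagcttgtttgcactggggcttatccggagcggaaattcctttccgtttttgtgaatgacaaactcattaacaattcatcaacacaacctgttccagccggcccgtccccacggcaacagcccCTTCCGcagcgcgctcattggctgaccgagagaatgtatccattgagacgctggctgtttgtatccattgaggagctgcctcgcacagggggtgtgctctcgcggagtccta
Spry2 (chr14:105896770-105897069, reverse strand): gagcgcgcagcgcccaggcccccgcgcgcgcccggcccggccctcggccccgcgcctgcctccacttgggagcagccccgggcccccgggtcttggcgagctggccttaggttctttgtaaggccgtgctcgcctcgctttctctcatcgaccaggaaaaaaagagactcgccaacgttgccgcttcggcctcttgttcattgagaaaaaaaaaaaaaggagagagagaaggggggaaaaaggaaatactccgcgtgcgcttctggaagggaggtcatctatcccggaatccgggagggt
Spred1 (chr2:117120821-117121120, forward strand): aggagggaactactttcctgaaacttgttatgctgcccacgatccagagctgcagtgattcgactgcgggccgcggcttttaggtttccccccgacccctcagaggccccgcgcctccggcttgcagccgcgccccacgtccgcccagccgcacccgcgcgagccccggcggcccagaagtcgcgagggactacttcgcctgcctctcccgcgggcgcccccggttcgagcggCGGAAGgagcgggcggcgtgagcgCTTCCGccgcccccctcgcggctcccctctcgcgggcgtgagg
The Dusp6 promoter holds the letters CGGAAG 1 time and the Spred1 promoter 2 times, and Spry2 has none in this window. The shorter core GGAA was not searched for, and it does occur in the Spry2 sequence shown. A match describes the letters and is not evidence of binding.

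Spry2 (chromosome 14, 105891947 to 105896819, reverse strand) had the lowest estimate after Mapk3. Its FPKM was 34.9 in WT-1015, 28.6 in WT-1041, 32.9 in WT-1061 and 22.9 in WT-1063. Values of 27.0 in DF-1018, 20.8 in DF-1037, 24.96 in DF-1059 and 12.3 in DF-1062 were found in the 16p11.2+/- mice. DF-1037 and DF-1062 lay below every WT mouse, whereas DF-1018 and DF-1059 lay above WT-1063. Group values were 29.8 ± 5.35 (SD, n = 4) and 21.3 ± 6.53 (SD, n = 4), with an exact permutation p of 0.114. The log2 fold change was -0.50 (standard error 0.25, 95% interval -1.08 to 0.08, adjusted p = 0.859 in edgeR). It was -0.28 without DF-1062 and -0.19 (95% interval -0.61 to 0.23) without both DF-1037 and DF-1062.

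Spred1 (chromosome 2, 117121374 to 117182279, forward strand), which brings the RAS inhibitor neurofibromin to the membrane, also had its lowest values in DF-1037 and DF-1062. It had an FPKM of 51.3, 49.2, 53.4 and 38.9 in WT-1015, WT-1041, WT-1061 and WT-1063. In DF-1018 and DF-1059 it had 49.9 and 45.4, and in DF-1037 and DF-1062 35.7 and 35.4. This pair was below every WT mouse. Between the genotypes the log2 fold change was -0.23 (standard error 0.16, 95% interval -0.59 to 0.14, adjusted p = 0.859 in edgeR) and -0.01 (95% interval -0.34 to 0.33) without that pair. It was -0.13 without DF-1062 alone.

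Dusp6 (chromosome 10, 99263231 to 99267489, forward strand) had another order of mice. Its FPKM was 14.0, 11.6, 10.5 and 11.18 in the 4 WT mice in the order given. It was 9.70 in DF-1018, 14.0 in DF-1037, 8.44 in DF-1059 and 7.46 in DF-1062. The remaining 16p11.2+/- mice were below the lowest WT value, and DF-1037 was as high as WT-1015. The means were 11.8 ± 1.53 (SD, n = 4) and 9.89 ± 2.86 (SD, n = 4), with an exact permutation p of 0.257. The log2 fold change was -0.28 (standard error 0.20, 95% interval -0.74 to 0.18, adjusted p = 0.859 in edgeR). With 1 mouse left out it was -0.49 without DF-1037, -0.13 without DF-1062 and -0.17 without WT-1015. Without DF-1037 and DF-1062 it was -0.38 (95% interval -0.71 to -0.04), with an unadjusted edgeR p of 0.0328 and an adjusted p of 0.995.

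Etv5 (chromosome 16, 22381309 to 22439719, reverse strand) had an FPKM of 27.4, 24.7, 20.3 and 15.7 in the WT mice. In the 16p11.2+/- mice it had 19.5, 24.8, 16.0 and 13.5 in the order DF-1018, DF-1037, DF-1059 and DF-1062. Both groups were spread widely, with SDs of 5.16 around 22.04 and 4.90 around 18.4 (n = 4 each), and DF-1037 was again the highest of its group. This gave a log2 fold change of -0.27 (standard error 0.23, 95% interval -0.80 to 0.25, adjusted p = 0.859 in edgeR). It was -0.45 without DF-1037, -0.12 without DF-1062 and -0.14 without WT-1015, and -0.13 with the cortical score in the model. WT-1063 was the lowest WT mouse for Etv5, Spry2 and Spred1. It had the highest WT scores for thalamus (6.47), choroid plexus (7.76) and astrocytes (7.33). It also had the lowest WT scores for medium spiny neurons (8.09) and cortical neurons (2.37). The fitted level was between 47.3% and 106% of WT for Spry2, between 60.1% and 113% for Dusp6 and between 57.4% and 119% for Etv5. With 4 mice per group these intervals hold both no difference and a large fall, for Spry2 even one to 50% of WT.

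**Figure D3:**
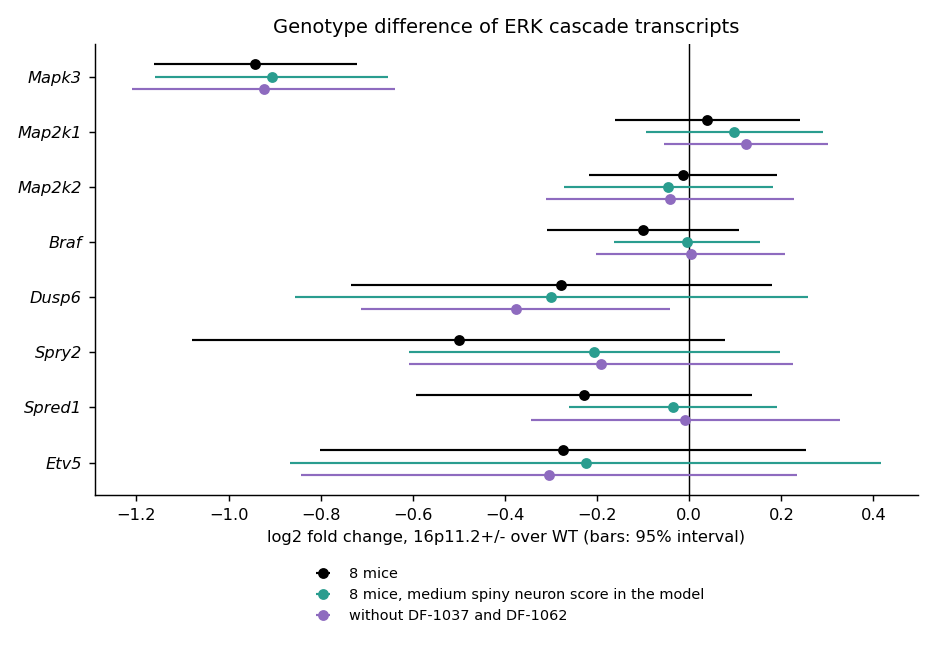
Log2 fold change (16p11.2+/- over WT) and 95% interval of each member from edgeR, with all 8 mice (black), with the medium spiny neuron score in the model (teal) and without DF-1037 and DF-1062 (purple). Mapk3 stays between -0.94 and -0.91 in all 3 fits, whereas the estimate of Spry2 moves from -0.50 to -0.21 and -0.19.

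Of the members, Spred1 varied with the level of medium spiny neuron transcripts past the threshold, and Mapk3 did not pass it. In bulk tissue, fewer cells of a type and less RNA per cell cannot be told apart. The share of tissue from outside the striatum in each piece was not measured. Thalamus scores were high in DF-1037 (6.58) and DF-1062 (5.67), but also in DF-1018 (5.72) and WT-1063 (6.47). A model with genotype and the medium spiny neuron score gave Spred1 a slope of 0.24 on the log2 scale per unit of the score (standard error 0.05, adjusted p = 0.0409 in edgeR), and it was the only member past the threshold, against 5.2% of all genes tested in either direction and 3.92% in the positive one. For Spry2 the slope was 0.39 (standard error 0.10, adjusted p = 0.0604 in edgeR) and for Braf 0.11 (standard error 0.04, adjusted p = 0.131 in edgeR). Those of Mapk3, Map2k1, Map2k2, Dusp6 and Etv5 were between -0.04 and 0.07. DF-1037 and DF-1062 have the lowest scores, and the slopes were not fitted without them.

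Set against WT, the same pair of mice had on average 55.4% of the Spry2 FPKM and 73.8% of the Spred1 FPKM, whereas DF-1018 and DF-1059 had 87.2% and 98.9%. For Mapk3 the shares were 53.1% and 52.4%. For Dusp6 they were 90.4% and 76.6%, but the values of DF-1037 (14.0) and DF-1062 (7.46) were far apart, the latter being the lowest of all 8 mice. With the score in the model, the genotype difference was -0.91 for Mapk3 (adjusted p = 0.0428 in edgeR), -0.21 for Spry2, -0.03 for Spred1, -0.01 for Braf, -0.30 for Dusp6 and -0.22 for Etv5, the last 5 with an adjusted p of 0.9999 in edgeR. With the thalamus score instead it was -0.91 for Mapk3, -0.32 for Spry2, -0.08 for Spred1, -0.07 for Braf, -0.36 for Dusp6 and -0.21 for Etv5, so that the estimates of Spry2 and Spred1 also moved with that score. The lowest medium spiny neuron scores, 6.30 and 6.74, both belong to 16p11.2+/- mice, so that this score and genotype are partly confounded. A smaller genotype difference with it in the model does not show that the genotypes are alike.

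**Figure D4:**
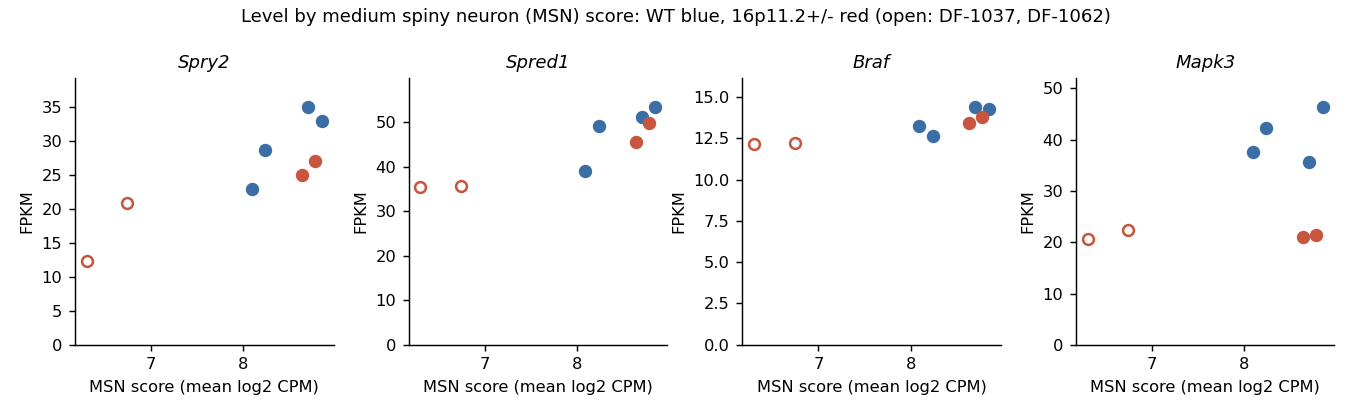
FPKM of Spry2, Spred1, Braf and Mapk3 (axes from 0) against the medium spiny neuron score, the mean log2 CPM of 8 marker genes, with 1 point per mouse (WT blue, 16p11.2+/- red, open circles for DF-1037 and DF-1062). The open circles, at scores of 6.30 and 6.74, have the lowest Spry2, Spred1 and Braf values of the 8 mice, while Mapk3 is at 20.7 to 22.3 in all 16p11.2+/- mice. No WT mouse has a score below 8.09.

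The wider pathway was read from a list of 64 genes grouped by role, of which 63 were tested. Dusp9, an ERK phosphatase gene with between 1 and 9 counts per mouse, was not. In the edgeR test 0 of the 63 genes passed the threshold over all genes, 4 had an unadjusted p under 0.05 against 4.32% of all genes tested, and neither DESeq2 nor any other alternative called one. Their median log2 fold change was 0.02, against -0.01 over all genes, with 29 negative and 34 positive values. The groups of 2 genes, Shc3 and Nf1, did not overlap, which held for 2.83% of all genes tested.

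Among the RAS activators and adaptors, Shc3, which encodes a neuronal adaptor between receptors and RAS, had an FPKM of 6.12 to 7.24 in WT and 7.70 to 9.39 in 16p11.2+/- mice. Its log2 fold change was 0.33 (standard error 0.10, unadjusted p = 0.00918, adjusted p = 0.859 in edgeR). Rasgrp1, the RAS exchange factor with the highest FPKM of the 10 genes of this role, had 111 ± 9.83 (SD, n = 4) and 97.4 ± 31.4 (SD, n = 4), with its lowest value in DF-1062. Of the RAS GTPase activating proteins, Nf1, the gene of neurofibromin, had an FPKM of 9.56 to 10.1 in WT and 10.6 to 12.9 in 16p11.2+/- mice. For Nf1 the log2 fold change was 0.16 (standard error 0.07, unadjusted p = 0.0467, adjusted p = 0.859 in edgeR).

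Pea15a, whose product holds ERK in the cytoplasm, led the 7 scaffolds and binding proteins, at 110 ± 12.3 (SD, n = 4) and 122 ± 16.3 (SD, n = 4). Among the other MAP kinases, Mapk9, the gene of JNK2, was highest at 32.3 ± 1.85 (SD, n = 4) and 36.3 ± 3.86 (SD, n = 4). Neither of these genes was past the threshold (adjusted p = 0.859 for both in edgeR).

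On the output side, Etv1, an ETS factor gene related to Etv5, came out at -0.29 on the log2 scale (standard error 0.11, unadjusted p = 0.0252, adjusted p = 0.859 in edgeR), with an FPKM of 8.16 to 9.44 in WT and 6.44 to 8.24 in 16p11.2+/- mice. Elk1 had the highest FPKM of the 3 ETS factor genes of the wider list, which leaves out the member Etv5. It had 8.56 to 12.1 in WT and 8.60 to 12.2 in 16p11.2+/- mice. Of the phosphatases, Dusp7 was highest at 15.7 to 17.9 in WT and 10.5 to 17.2 in 16p11.2+/- mice. Spred2 led the other feedback inhibitors at 17.5 ± 2.68 (SD, n = 4) and 16.0 ± 1.77 (SD, n = 4). Rps6ka4, which encodes the kinase MSK2, had the highest mean FPKM over all 8 mice of the ERK-activated kinases, at 10.99 ± 1.34 (SD, n = 4) and 9.87 ± 1.29 (SD, n = 4), and Epha4, an ephrin receptor gene, the other induced transcripts at 31.4 ± 1.31 (SD, n = 4) and 27.2 ± 8.85 (SD, n = 4). None of these passed (adjusted p of at least 0.859 in edgeR). The genes named here do not stand for their roles, in which signs were mixed. Negative values were found for 2 of 3 phosphatases (median log2 fold change -0.11) and 2 of 3 ETS factors (-0.13). They were found for 2 of 4 feedback inhibitors (0.03), 3 of 7 ERK-activated kinases (0.0028) and 3 of 6 other induced transcripts (0.01).

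The 6 ERK-dependent immediate early genes, which neurons transcribe within minutes of activity, had a median log2 fold change of -0.40, with 4 negative and 2 positive values. Egr1 had the lowest, -0.65 (standard error 0.31, adjusted p = 0.859 in edgeR), with an FPKM of 20.1 to 47.2 in WT and 11.9 to 25.2 in 16p11.2+/- mice. For Junb it was -0.54 (standard error 0.22, unadjusted p = 0.0350, adjusted p = 0.859 in edgeR). In each of these 6 genes the FPKM of the groups overlapped. Their fold changes without DF-1037 and DF-1062 or with a marker score in the model are not given here.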

How the data were processed

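RNA-seq libraries of striatum were grouped by the genotype label, 4 WT and 4 16p11.2+/-. Reads had been trimmed, mapped with Hisat2 and counted on genes with Htseq-count by the authors, who deposited raw count values. GEO's processing notes of the submitters name Bowtie 0.12.2 with mm8 and mm9 instead. The authors also deposited FPKM, which is the count over a fixed gene length and over the library total. These lengths equal GENCODE M21 exon lengths within 0.5 bases for 97.3% of 35149 genes, and positions are from there (GRCm38). The authors' deposited comparison (group means, log2 fold changes, p-values) and a summary of FPKM in bins were not used.

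The test was that of edgeR 4.0.16 under R 4.3.3 (TMM, filterByExpr with a minimum count of 10 and total of 15, quasi-likelihood test, Benjamini-Hochberg over 18294 genes, threshold 0.05). Standard errors come from the F statistic. FPKM and shares were compared by two-sided exact permutation over 70 assignments, unadjusted for the members. Marker scores average the log2 CPM of a list (prior count 2). Within each genotype no library was a copy of another, as chi-square over degrees of freedom was 8.88 to 62.9 between mice of 1 genotype. Libraries of different genotypes were not compared in this way. The alternatives were DESeq2 1.42.0, limma-trend (limma 3.58.1) on log2(FPKM + 1) and log2(FPKM + 0.1), RLE factors, library totals, other filters, thalamus and cortical scores as covariates, and each mouse left out. The medium spiny neuron score as a covariate and the fit without DF-1037 and DF-1062 were added after seeing the data. Simulated data with 200 changed genes served to test the code.

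The members and lists were chosen with earlier results of these data known. Named were the 8 members, Araf, the neighbours of Mapk3, the 5 genes nearest to it in profile, and, in the wider list, genes with an unadjusted p under 0.05 and the gene with the highest mean FPKM of each role. Some results of this rule and of the comparisons of kinase shares are not reported here. Dusp9 was named because it was not tested.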

Additional observations from a re-analysis of the deposited data

Results flagged for a closer look

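In 5 of 66 groups of values 1 mouse lay far from the others, measured as its gap to the nearest mouse over the range of the group, and chance gives about 1 in 20. The gap was 0.970 for the Epha4 FPKM of WT-1015 (33.3 against 30.7 at most), 0.929 for the Elk1 FPKM of WT-1063 (8.56 against 11.9 to 12.1) and 0.889 for the Nf1 FPKM of DF-1062 (12.9 against 10.6 to 10.9). It was 0.952 for the thalamus score of WT-1063 (6.47 against 3.18 to 3.34) and 0.860 for the choroid plexus score of DF-1037 (3.35 against 1.34 to 1.62). None of these values is that of a member.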

How the results depend on the processing

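The log2 fold change of Mapk3 stayed negative in all 19 alternatives, from -0.99 to -0.86, and 15 of them called it. It kept its size but not the call without DF-1037 and DF-1062 (-0.92, adjusted p = 0.154 in edgeR) and without WT-1041, DF-1018 or DF-1059 (adjusted p from 0.0573 to 0.0631 in edgeR), and with 1 mouse left out it ranged from -0.99 to -0.86. The number of members called was then 0, and from 0 to 1 with 1 mouse left out. Genes of the deleted segment called lower numbered 11 with the thalamus or the cortical score as covariate, 9 without DF-1037 and DF-1062, and 6 to 14 with 1 mouse left out, against 17, with under 12 without WT-1015, WT-1041, WT-1061, DF-1018, DF-1059 or DF-1062. The median over all genes moved by less than 0.1 between scalings.

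Without DF-1037 and DF-1062 the sign turned for Braf (0.0033). The sign of Map2k2 was positive with library totals (0.0081), on log2(FPKM + 1) (0.012) and on log2(FPKM + 0.1) (0.014), and ranged from -0.080 to 0.026 with 1 mouse left out. With 1 mouse left out, the difference of the Map2k2 share of the MEK FPKM ranged from -0.932 to 0.241 percentage points. No member other than Mapk3 was called in any alternative. The causes were not tested. No paired analysis was run, because the sample labels used here do not name pairs of mice.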
